A study of Rattus norvegicus with 192 samples.

Results

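The kidney mRNA of ZDF rats was compared with that of their lean controls when both were fed the casein-based diet, which asks how the kidney transcriptome differed between the genotypes without whole egg. Effects of genotype and of any obesity or diabetes that comes with it cannot be told apart here. The comparison held 12 of the 192 libraries of the series, 6 from ZDF rats and 6 from lean rats, and covered the 6797 genes whose identifiers stood in both kidney count tables. A further 810 genes stood only in the lean table and 704 only in the ZDF table, and these were not compared. All rats were male. ZDF rats are homozygous for the fatty allele of the leptin receptor (fa/fa) and lean controls carry 1 copy of it (fa/+), so both groups hold the allele and both have the ZDF background. The rats arrived at 6 wk of age, were housed in pairs, and ate a semi-purified diet with 20% protein from casein for 8 wk. Rats that ate whole egg in place of casein, 12 in all, served only for values side by side.

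Leptin is released by fat cells and limits food intake through its receptor in the hypothalamus. Male rats that lack a working receptor overeat, become obese and insulin resistant, and turn diabetic on suitable diets. The kidney then filters more glucose than normal, its proximal tubule takes much of it back, and with time the glomeruli scar. The kidney also makes glucose, breaks down amino acids and conjugates foreign compounds, so genes of these functions, of injury and of matrix were read here as lists.

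Genotype was taken from the names of the count columns. The strain given in the sample labels contradicts the column name for 5 of the 12 casein rats, 2 that are ZDF by column name (rats 14 and 24) and 3 that are lean by column name (rats 4, 8 and 12). Counts of the leptin receptor gene could not check this, since the fa allele is a missense change that read counts do not show, and the gene does not stand in either kidney count table. Other tissues of the same casein rats gave an indirect check. Liver held 6 ZDF and 5 lean rats by column name, without lean rat 23, and 7 and 4 by strain label. In adipose tissue, edgeR's quasi-likelihood test called 88 of 7395 genes (1.19%) between ZDF and lean rats by column name at an adjusted p under 0.05, and 0 by strain label (0.00%), where 364 genes (4.92%) had an unadjusted p under 0.05 and DESeq2 also called 0. In liver, Scd, the desaturase of saturated fatty acids, was 2.62 ± 0.37 higher in ZDF rats on the log2 scale (SE, edgeR adjusted p = 0.00378). Fasn, which makes palmitate, was 3.03 ± 0.52 higher there (adjusted p = 0.0201). Both were among the liver genes called by column name, so they cannot serve as a check of that grouping. Their differences by strain label are not given here. In adipose tissue the Fasn difference by column name was -1.83 ± 0.43 (edgeR adjusted p = 0.0415). The edgeR test called 3 of 8100 liver genes (0.0370%) by column name and 1 by strain label (0.0123%). The other liver counts were higher by strain label. At an unadjusted p under 0.05 there were 702 genes by strain label (8.67%) and 380 by column name (4.69%), DESeq2 called 53 (0.654%) and 21 (0.259%), and limma-voom called 21 (0.259%) and 6 (0.0741%). The prefrontal cortex (PFC) gave 0 calls of 8289 genes in edgeR by either source, with 473 genes (5.71%) at an unadjusted p under 0.05 by column name and 253 (3.05%) by strain label. DESeq2 called 72 (0.869%) and 7 (0.0844%) there, and limma-voom called 0 by either source. More genes thus stood out by column name in adipose tissue and, apart from the edgeR and limma-voom calls, in the PFC. In liver more stood out by strain label, apart from the edgeR calls. In the 4 ZDF and 3 lean rats (2 lean in liver) for which both sources agree, edgeR called 26 adipose genes (0.352%). It called 13 liver genes (0.160%) and 8 PFC genes (0.0965%) in those rats.

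The kidneys of ZDF and lean rats on casein did not differ in any gene past the threshold. The edgeR test, fitted to the 12 libraries with trimmed mean of M values (TMM) factors and adjusted by Benjamini-Hochberg, called 0 of 6797 genes (0.00%) at a false discovery rate of 5%. At an unadjusted p under 0.05 there were 276 genes (4.06%), of which 138 were higher (2.03%) and 138 lower (2.03%) in ZDF rats. DESeq2 called 1 gene (0.0147%) and limma-voom 0. The median log2 difference over all genes was 0.01 (ZDF minus lean, as throughout), with quartiles of -0.29 and 0.32, and 361 genes had an estimate of at least 1 in size. Only 13 genes (0.191%) had scaled counts (CPM, reads of a gene per 1e+06 reads of its library after TMM scaling) that did not overlap between the 6 ZDF and the 6 lean rats, and none of them carried a gene symbol here.

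**Figure D1:**
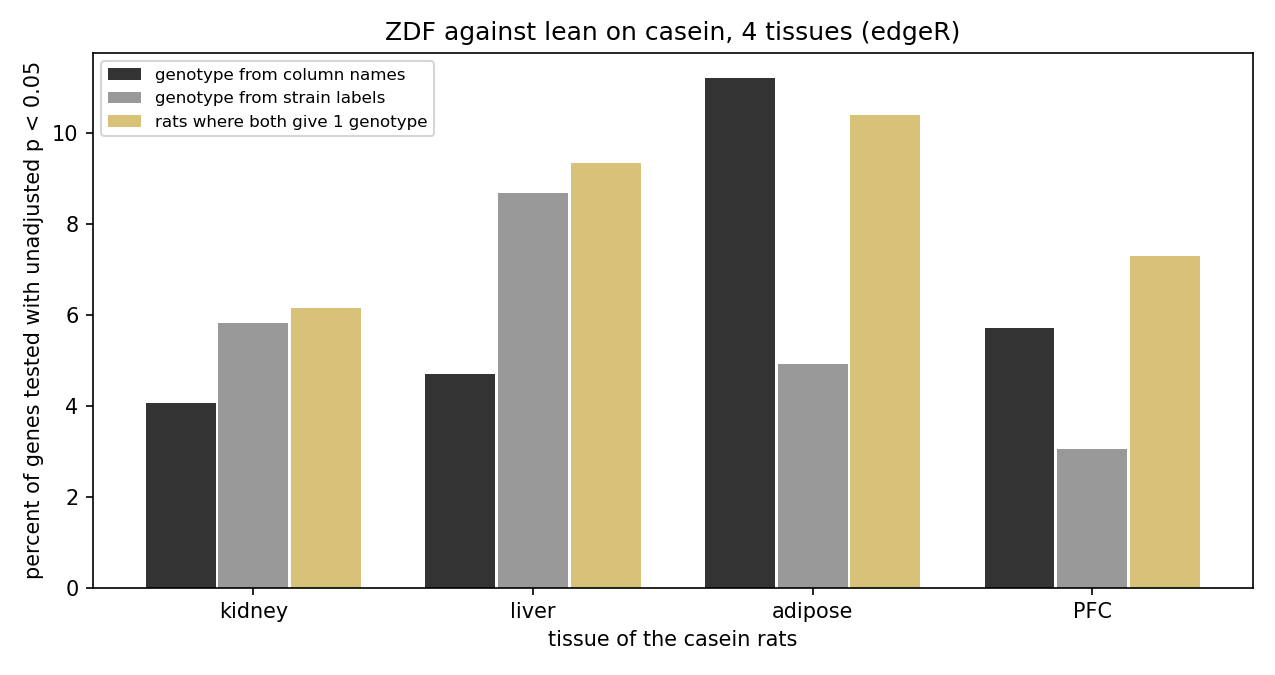
Percent of genes tested with an unadjusted edgeR p under 0.05 (vertical axis) between ZDF and lean rats on casein in 4 tissues (horizontal axis), with genotype taken from the column names, from the strain labels, or limited to the rats for which both agree. By column name the kidney bar stands at 4.06% and the adipose bar at 11.2%, and in the kidney the other bars stand at 5.81% and 6.15%.

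With these counts the comparison could miss differences of moderate size. The standard error of a log2 difference had a median of 0.48 over all genes, 0.32 for genes with a mean CPM of at least 100 and 0.69 for those under 10. For 1510 genes (22.2%) the whole 95% interval lay between -1 and 1, and for 6020 genes (88.6%) it lay between -2 and 2. Each interval stands for 1 gene without adjustment over all genes, so a 2-fold difference is not excluded for these genes as a set. The spread between rats was large: the common biological coefficient of variation was 0.53 in the kidney, against 0.57 in adipose tissue, 0.44 in liver and 0.39 in the PFC of the casein rats.

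Total counts ran from 138171 to 1163903 in ZDF rats (median 872928) and from 665699 to 5356262 in lean rats (median 1409372). Depth did not differ past the threshold between the genotypes (exact permutation test on log10 totals, two-sided, 924 splits, p = 0.117, 0.818 after adjustment over 7 library measures). The most abundant gene, ENSRNOG00000043866, took 13.9% to 44.3% of the counts in ZDF rats and 2.93% to 51.1% in lean rats, with medians of 30.2% and 30.0%. In a principal component analysis of log2 CPM, ZDF rat 5 (the shallowest library) stood apart on the first component, lean rat 12 on the second, and ZDF rats 1 and 9 at opposite ends of the third, which held 23.6%, 17.5% and 12.8% of the variance. The median correlation of log2 CPM was 0.693 between ZDF libraries, 0.784 between lean libraries and 0.743 between a ZDF and a lean library. Leaving out these 4 libraries left 0 genes called and 357 at an unadjusted p under 0.05, and leaving out ZDF rat 5 and lean rat 12 left 0 and 313.

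**Figure D2:**
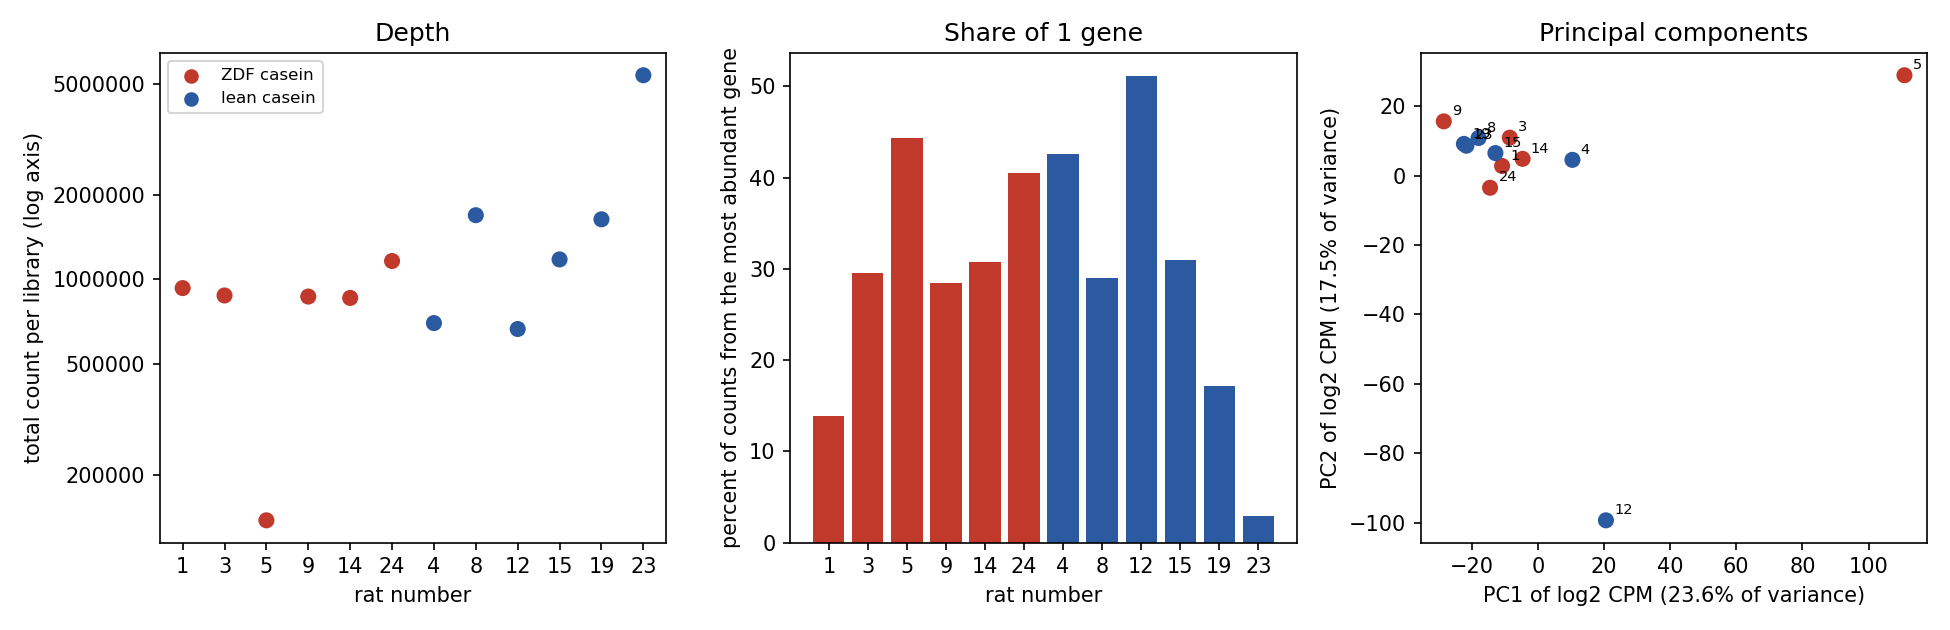
Total count per library on a log axis, percent of counts from the most abundant gene, and the first 2 principal components of log2 CPM, for the 6 ZDF (red) and 6 lean (blue) casein kidneys, numbered by rat. ZDF rat 5 has the lowest total (138171), lean rat 12 the highest share of 1 gene (51.1%), and the other 10 libraries lie close together with both genotypes mixed.

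Symbols were at hand for 387 of the genes tested. They came from a list of genes called for diet in some tissue and genotype. That choice used these casein libraries among others, so named genes are not a random draw. None of the 387 was called, and 19 (4.91%) reached an unadjusted p under 0.05, with 5 higher and 14 lower in ZDF rats, beside 4.06% of all genes. Of the leading 10 of these genes in each direction, ranked by p, 19 are described next as values, since every one of them had an adjusted p of 0.997 in edgeR and its ZDF and lean values overlapped.

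Of the lower genes, Gcsh and Hpd act in the breakdown of amino acids. Gcsh encodes the H protein of the glycine cleavage system. Its CPM was 65.0 to 142 in ZDF rats (median 113) and 87.0 to 554 in lean rats (median 197), and 2 ZDF rats lay below every lean rat. The log2 difference was -1.13 ± 0.36 (SE, unadjusted p = 0.0037). The highest lean value came from rat 23, the deepest library, and the other lean rats reached at most 229. Without rat 23 the Gcsh difference was -0.68. Hpd, the dioxygenase of tyrosine breakdown, ran from 88.8 to 200.0 CPM in ZDF rats (median 153) and from 94.8 to 464 in lean rats (median 218), a log2 difference of -0.81 ± 0.34 (unadjusted p = 0.0244).

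Rgn encodes regucalcin, a calcium-binding protein that is also a lactonase. It had 56.1 to 230 CPM in ZDF rats (median 131) and 177 to 474 in lean rats (median 257). Of the ZDF rats 5 lay below the lowest lean rat, and only ZDF rat 24 reached the lean range. The log2 difference was -1.03 ± 0.33, with a 95% interval from -1.70 to -0.35 (unadjusted p = 0.00432). In the whole egg rats the difference of Rgn was -0.83 ± 0.39 (unadjusted p = 0.0371, adjusted 0.999).

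Genes of retinoid and glucuronide chemistry were also among the lower ones. Aldh1a1, which oxidizes retinaldehyde to retinoic acid, had 72.2 to 224 CPM in ZDF rats (median 104) and 127 to 393 in lean rats (median 234), so that 4 ZDF rats lay below the lean range and rats 3 and 9 within it. Its log2 difference was -0.88 ± 0.33. Ugt1a6 encodes a glucuronosyltransferase of phenols. It had 73.1 to 209 CPM in ZDF rats and 158 to 408 in lean rats, a log2 difference of -0.72 ± 0.31. The Ugt1a enzymes share their 3' exons, which is the end that these libraries read, so its counts may hold those of its relatives.

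Ubd and Upf1 had the fewest reads of the lower genes. Ubd encodes a ubiquitin-like modifier that interferon and tumour necrosis factor induce. Its CPM was 0 to 8.07 in ZDF rats (median 2.66) and 4.40 to 34.2 in lean rats (median 14.9), and 5 ZDF rats lay below every lean rat. These values rest on 0 to 7 reads per ZDF library and 5 to 107 per lean library, and the 0 in ZDF rat 5 allows up to 24.4 CPM at that depth (3 counts, counting error only). The log2 difference of -2.25 ± 0.66 had a 95% interval from -3.60 to -0.90 (unadjusted p = 0.00199). Upf1, the helicase of nonsense-mediated decay, had 2.17 to 11.0 CPM in ZDF rats and 7.49 to 62.3 in lean rats, where lean rat 12 gave the highest value and the next was 22.0. Its log2 difference was -1.71 ± 0.61.

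The last of the lower genes were Dbp and Tfrc. Dbp, a transcription factor that swings with the circadian clock, had 35.1 to 106 CPM in ZDF rats (median 48.9) and 62.2 to 203 in lean rats (median 90.8), a log2 difference of -0.87 ± 0.36 that was -0.57 without lean rat 23. Time of death is not given in the labels used here. Tfrc, the receptor that imports iron on transferrin, ranged from 1.15 to 31.9 CPM in ZDF rats and from 12.4 to 88.3 in lean rats, with a log2 difference of -1.37 ± 0.57 and 3 ZDF rats below the lean range.

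Among the genes with higher estimates, 2 have roles in mitochondria or redox balance. Clpx encodes the unfoldase that feeds a protease of the mitochondrial matrix. It had 32.9 to 173 CPM in ZDF rats (median 105) and 31.4 to 71.7 in lean rats (median 56.1). All ZDF rats but rat 9 lay above every lean rat, and the log2 difference was 1.00 ± 0.35, with a 95% interval from 0.28 to 1.73 (unadjusted p = 0.00849). Prxl2a, a peroxiredoxin-like protein, showed the same 5 ZDF rats (48.1 to 65.0 CPM) above the lean rats (17.5 to 42.0 CPM), while ZDF rat 9 at 14.6 CPM lay below all of them. Its log2 difference was 1.01 ± 0.41.

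Mal2, a membrane proteolipid of vesicle traffic to the apical surface of epithelia, had 19.6 to 63.1 CPM in ZDF rats (median 31.9) and 1.55 to 27.1 in lean rats (median 11.7), a log2 difference of 1.43 ± 0.53 (unadjusted p = 0.0122). Its lowest lean values, in rats 4 and 12, rested on 1 read each. Car2, the carbonic anhydrase of acid-secreting intercalated cells that other tubule cells also hold, had 122 to 737 CPM in ZDF rats (median 271) and 146 to 255 in lean rats (median 204), with a log2 difference of 0.67 ± 0.34. Without ZDF rat 1, which gave the highest value, the Car2 difference was 0.23, the lowest of the 12 values with 1 library left out. Sesn2, a stress-induced inhibitor of growth signalling, had a difference of 0.59 ± 0.31.

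Phlda1, an early response gene induced by growth factors, had 16.2 to 118 CPM in ZDF rats (median 63.9) and 23.4 to 43.5 in lean rats (median 34.1). The ZDF rats were split around the lean range, 4 above it and 2 below, where the value of ZDF rat 5 rested on 2 reads. The log2 difference was 0.90 ± 0.41 on casein (unadjusted p = 0.0379). In the whole egg rats ZDF values ran from 7.13 to 47.4 CPM and lean values from 3.38 to 11.5, a difference of 2.31 ± 0.48 with an edgeR adjusted p of 0.0668. The difference between the diets in this genotype effect was -1.42 (unadjusted p = 0.0297, adjusted p = 0.999). Phlda1 carries a symbol here because the study called it lower on whole egg in these lean kidneys. That choice favours low lean whole egg and high lean casein values, so these differences of Phlda1 are not independent of it.

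The remaining 4 higher genes were Nexmif, a neuronal gene of neurite growth, Tmcc3, a protein of the endoplasmic reticulum, Pros1, the anticoagulant protein S, and Apoa4, an apolipoprotein. Their medians were 15.6, 19.7, 16.2 and 20.4 CPM in ZDF rats and 8.74, 8.72, 10.9 and 7.35 CPM in lean rats. Their log2 differences ranged from 1.00 (Pros1) to 1.27 (Apoa4), with standard errors of 0.52 to 0.69. In these genes 2 to 5 ZDF rats lay above every lean rat. For Nexmif and Tmcc3 they include ZDF rat 5, whose 16.2 CPM rested on 2 reads. The Nexmif difference was 0.58 without ZDF rat 9, which had 56.1 CPM where the other ZDF rats had at most 18.5. The Apoa4 difference was 0.68 without ZDF rat 14 and 2.03 without lean rat 12. Apoa4 was high in the rats in which the liver marker Apoa1 was high: ZDF rats 1, 5 and 14 and lean rat 12 had 32.5 to 70.4 CPM of Apoa4 and 40.6 to 77.9 CPM of Apoa1, and the other rats at most 12.4 and 28.0 CPM. Cps1, another liver gene, had 24.9 to 80.5 CPM in those high rats and 4.88 to 45.1 CPM in the others. Cyp2c11, also on the liver list, had 28.2 to 144 and 3.66 to 129 CPM, so its ranges overlapped widely. The part of liver transcripts in the Apoa4 difference was not tested.

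**Figure D3:**
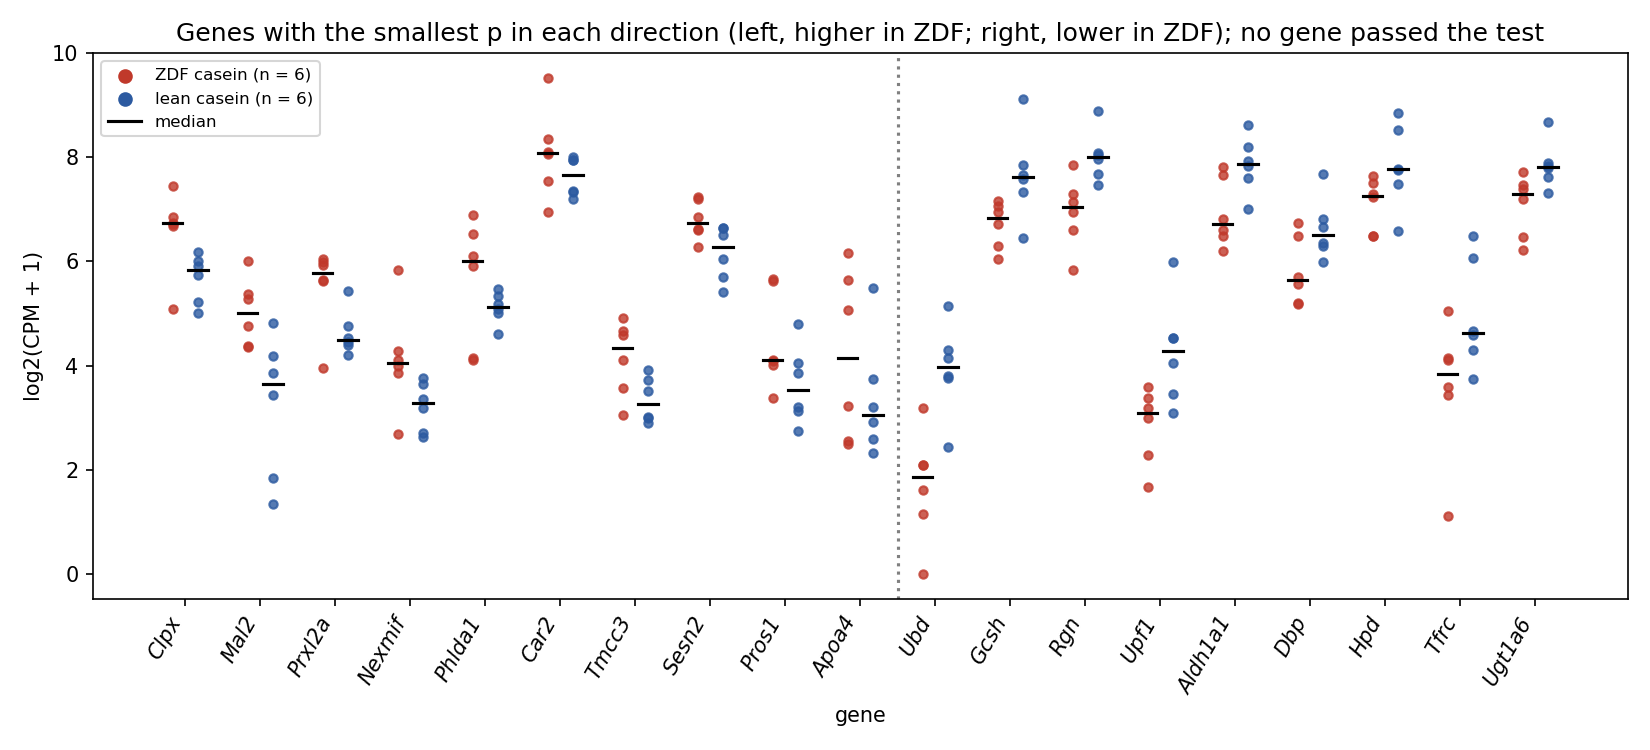
CPM as log2(CPM + 1) (vertical axis) of 19 leading named genes (horizontal axis), 1 point per rat, ZDF in red and lean in blue, with a bar at the median of 6. Points of both genotypes overlap in each gene, and in Clpx and Prxl2a a single ZDF point (rat 9) lies among or below the lean points.

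Outside the named genes, the smallest p belonged to ENSRNOG00000043451, for which no symbol was found. Its CPM in ZDF rats was 138 to 1193 (median 453) and in lean rats 51.9 to 303 (median 89.7), and 3 ZDF rats (1, 9 and 14) lay above every lean rat. The log2 difference was 2.14 ± 0.46, with a 95% interval from 1.19 to 3.09 and an edgeR adjusted p of 0.548. DESeq2 gave the same gene an adjusted p of 0.0407. The gene with the largest estimate, ENSRNOG00000054065 (-5.16 ± 1.60), rested on 1 library: lean rat 4 had 18569 CPM, the other lean rats at most 8.98, and without rat 4 the difference was 3.65.

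The pathway lists held 105 measured genes, none called. At an unadjusted p under 0.05 there were 9 of the 105 (8.57%), Phlda1 higher and 8 lower in ZDF rats. Beside this stand 4.06% of all genes and 4.91% of the genes with a symbol, from which the lists draw. Of the 19 such genes with a symbol, 14 were lower. The lists were chosen with earlier results of these data known, so their share cannot show an excess. The median log2 difference of the listed genes was -0.12. The lower listed genes included Aldh1a1, Dbp, Hpd, Tfrc and Ugt1a6, described above, with Gstt3, a theta class glutathione transferase, and RT1-Ba, a class II antigen presentation molecule.

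Glutathione transferases couple glutathione to electrophiles, and 12 of them were measured, 7 with negative and 5 with positive estimates around a median of -0.10. Gstt3 had 225 to 833 CPM in ZDF rats (median 561) and 541 to 1320 in lean rats (median 832), with 3 ZDF rats below the lean range and a log2 difference of -0.67 ± 0.32 (unadjusted p = 0.0445). Estimates of Gstt1, Gstp1 and Gsta1 were -0.74 ± 0.50, -0.66 ± 0.40 and -0.42 ± 0.33. Each was over 1.5 times smaller without 1 lean rat. Without lean rat 23 the Gstt1 difference was -0.43. Lean rat 12 had 423 CPM of Gstp1 where the other lean rats had at most 119, and without it the differences of Gstp1 and Gsta1 were -0.03 and -0.18. Without ZDF rat 1 that of Gsta1 was -0.75. Gstp1 carries a symbol because the study called it higher on whole egg in these ZDF kidneys, a choice that favours low ZDF casein values. Members of this family are alike in sequence, and how the authors' counting treated reads that fit several of them is not given in the sources used here. The 6 other genes of glutathione supply and antioxidant defence had a median of 0.11, led by Cat, the catalase (0.58 ± 0.39). ZDF rats 1 and 24 had 1807 and 1433 CPM of Cat, 3 ZDF rats lay below the lean range (388 to 854 CPM), and the difference was 0.18 without rat 1 and 0.35 without rat 24.

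Drug metabolism was the largest list, with 14 genes, 11 of them with negative estimates and a median of -0.26. Amino acid metabolism had 6 negative and 4 positive estimates among 10 genes and a median of -0.43. There Ass1, which makes argininosuccinate, stood at -0.80 ± 0.47, and Arg2, the mitochondrial arginase, at 0.93 ± 0.52. Without lean rat 23, which had 903 CPM of Ass1 where the other lean rats had at most 312, the Ass1 difference was -0.04, and without ZDF rat 1 it was -1.43. Without ZDF rat 24 the Arg2 difference was 0.42. Arg2 carries a symbol because the study called it higher on whole egg in these lean kidneys, a choice that favours low lean casein values. In the whole egg rats the same lists had medians of 0.21 and 0.47.

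Genes of glucose handling were few. G6pc, the phosphatase that releases glucose, had 188 to 457 CPM in ZDF rats and 122 to 344 in lean rats, a difference of 0.39 ± 0.31 that was 0.17 without ZDF rat 3 and 0.60 without lean rat 19. Sord, the polyol enzyme that turns sorbitol into fructose, stood at -0.42 ± 0.31. Fatty acid oxidation had 4 measured genes around a median of 0.05, of which Cyp4a2, a fatty acid hydroxylase of the proximal tubule, was the most abundant. In Cyp4a2 4 ZDF rats (1137 to 1610 CPM) lay below the lean range (2139 to 2738 CPM), 1 lay within it and ZDF rat 1 reached 4655 CPM, which gave a difference of -0.27 ± 0.35. Without ZDF rat 1 the Cyp4a2 difference was -0.70.

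Lipogenic genes had a median of 0.05 over 8 members. Scd, higher in the liver of the 6 ZDF rats than in 5 of these lean rats, had a kidney difference of 0.61 ± 0.72. That of Fasn was 0.05 ± 0.53. The Scd difference was -0.21 without ZDF rat 14 and 1.45 without lean rat 4. Fads1, a desaturase of polyunsaturated fatty acids, had 3.66 to 24.1 CPM in ZDF rats and 12.6 to 34.3 in lean rats. Of the ZDF rats 5 lay below the lean range, but rats 3, 5 and 9 had only 1 to 4 reads of Fads1. Its difference was -0.97 ± 0.54, and -1.50 without ZDF rat 1. Cholesterol synthesis had 5 negative and 4 positive estimates among 9 genes around a median of -0.08.

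Injury and scarring were covered thinly. Krt8 and S100a10, both raised in damaged tubules, stood at -0.31 ± 0.41 and 0.16 ± 0.32, both smaller than their errors. Of the 5 matrix genes 4 had positive estimates and the median was 0.46, from -0.28 ± 0.39 for Col3a1, a fibrillar collagen, to 0.94 ± 0.64 for Lox, the enzyme that cross-links collagen. The Col3a1 difference was 0.19 without lean rat 8, and that of Lox 0.47 without ZDF rat 1. Interferon-induced genes had 3 positive estimates of 4 and a median of 0.42, against -0.27 in the whole egg rats. With 1 library left out, the estimate of Parp9 ranged from 0.02 to 1.24 and that of Eif2ak2 from -0.16 to 0.47. The lowest value of each was the one without ZDF rat 9. Ubd (-2.25), described above, is not on this list. RT1-Ba had 11.1 to 78.4 CPM in ZDF rats and 15.6 to 114 in lean rats (-1.07 ± 0.51, unadjusted p = 0.0448), and the difference was -1.80 without ZDF rat 3. The 4 clock genes Dbp, Per3, Clock and Per2 all had negative estimates on casein, from -0.87 to -0.22, and their median in the whole egg rats was 0.46. Without lean rat 4 the estimate of Clock was 0.07. None of these lists can be called different between ZDF and lean kidneys.

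**Figure D4:**
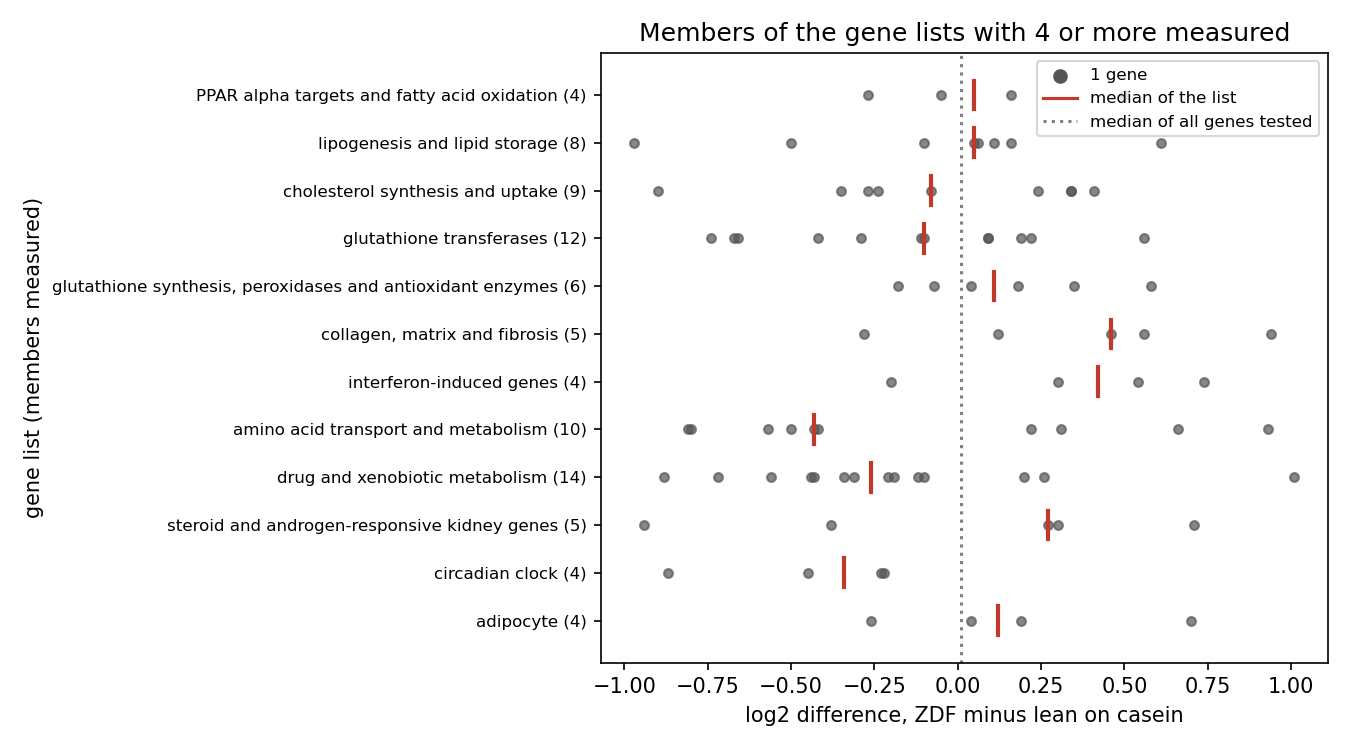
Log2 difference between ZDF and lean casein kidneys (horizontal axis) of each measured member of the lists with at least 4 members (vertical axis, with the number measured), with the list median in red and the median of all genes dotted. Members lie on both sides of 0 in each list but the clock genes.

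Marker genes were read to see whether the cut of kidney differed between the groups, and 8 of the 14 marker lists had a measured member. Acsm2, an acyl-CoA synthetase of the proximal tubule, was found at 146 to 1010 CPM in ZDF rats and 213 to 528 in lean rats. Slc12a3, the thiazide-sensitive salt transporter of the distal convoluted tubule, ranged from 23.9 to 595 CPM in ZDF rats and from 148 to 346 in lean rats. Clic5, a podocyte gene, ranged from 49.8 to 243 and from 76.9 to 206 CPM. Summed over 4 adipocyte markers (Adipoq, Fabp4, Retn and Ca3), levels came to 113 to 950 CPM in ZDF rats and 68.4 to 863 in lean rats. Over 3 liver genes (Apoa1, Cyp2c11 and Cps1) they came to 22.0 to 290 and 48.6 to 226 CPM. These sums thus varied widely within both groups, and whether they reflect traces of fat and liver was not tested. In whole tissue, fewer cells of a type and less RNA per cell cannot be told apart. Markers of the loop of Henle, principal cells, endothelium, red cells, adrenal gland and urothelium were not identified by symbol and were not read here.

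The same genotype contrast in the 12 whole egg rats, fitted with the casein rats in 1 model of 24 libraries, called 0 of 6797 genes in edgeR (0.00%), with 285 (4.19%) at an unadjusted p under 0.05. DESeq2 called 2 genes there, Phlda1 among them. The test of whether the genotype effect differed between the diets called 0 genes in edgeR, DESeq2 and limma-voom, with 283 at an unadjusted p under 0.05 in edgeR. Across all genes the 2 sets of log2 differences, from separate rats, had a Pearson r of -0.036 and a Spearman rho of -0.012, and 3351 genes (49.3%) had the same sign in both. Genes are not independent replicates, so these are descriptions. For the 276 genes at an unadjusted p under 0.05 on casein the same sign was found in 129 (46.7%), and for the 19 genes described above in 9.

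**Figure D5:**
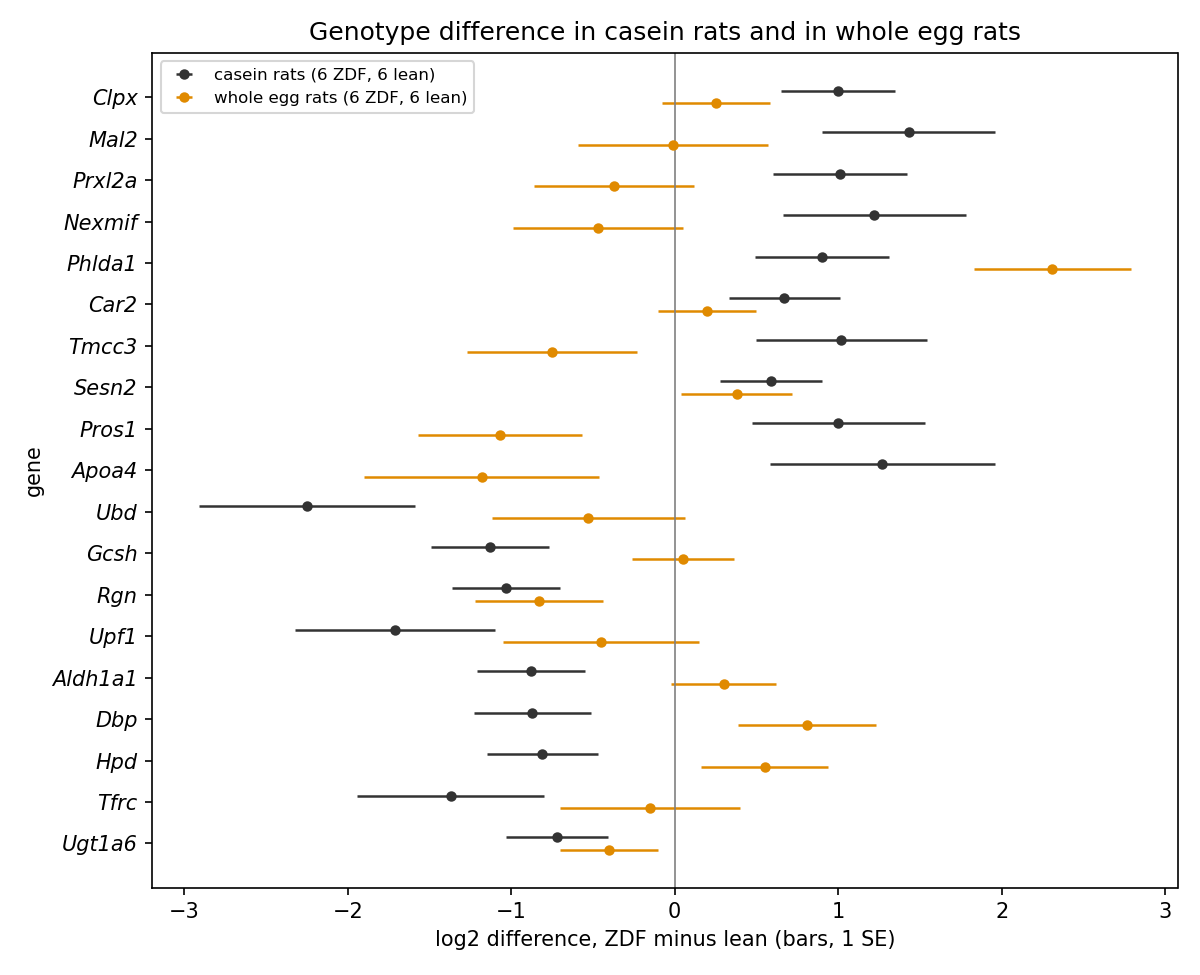
Log2 difference between ZDF and lean kidneys (horizontal axis, bars of 1 SE) for the 19 genes described (vertical axis) in casein rats (dark) and in whole egg rats (orange), 6 ZDF and 6 lean each. In 9 of 19 genes both points lie on the same side of 0, and Phlda1 is the 1 gene whose whole egg estimate (2.31) is larger than that on casein in the same direction.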

How the data were processed

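The authors extracted RNA, made QuantSeq 3' libraries, trimmed the reads, checked them in FastQC, mapped them in STAR (RNO_6, Ensembl 94) and counted them per gene, with tool versions not given in the sources used here. The files deposited are unscaled counts, and the kidney tables hold genes with at most 1 zero among 12 libraries, so genes silent in a group are largely absent. Counts were joined by identifier and tested in edgeR 4.0.16 (R 4.3.3; glmQLFit and glmQLFTest, two-sided, TMM factors, Benjamini-Hochberg over all genes, no covariates). CPM are TMM-scaled, and log2 CPM for principal components used a prior count of 2. Each edgeR SE is the size of the log2 difference divided by the square root of the F statistic of its test. The spread of the casein comparison was estimated from its own 12 libraries, and that of the whole egg and diet contrasts from 24. Alternatives used DESeq2 1.42.0, limma 3.58.1 and sva 3.50.0, and figures matplotlib 3.10.9. The tests were tried on simulated counts. Symbols came from 550 identifier and symbol pairs in the study. Named genes were the 10 with the smallest p in each direction and up to 4 members per list; 1 of them is not reported here. The members and lists were chosen with earlier results of these data known. Each library is a separate rat. The cage mates are not given, so p-values take rats as independent.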

Additional observations from a re-analysis of the deposited data

Results flagged for a closer look

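Among 44 groups of 6 libraries read for a single library far from the rest (the totals, the share of the most abundant gene and the 20 named genes, in each genotype), 3 held one, and chance gives about 1 in 20. ZDF rat 5 had a total count of 138171, against 859282 to 1163903 in the other ZDF rats. ZDF rat 9 had 32.9 CPM of Clpx, against 102 to 173 in the other ZDF rats. The same rat had 14.6 CPM of Prxl2a, against 48.1 to 65.0. Rat 9 is ZDF in both its column name and its strain label, and whether the low values of Clpx and Prxl2a share a source was not tested. No named gene had a genotype effect that differed between casein and whole egg past the threshold.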

How the results depend on the processing

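Of 29 alternatives, 5 of them chosen after seeing the data, 26 left 0 genes called on casein and 3 called 1, each time ENSRNOG00000043451: DESeq2 with its own size factors (1), 1 surrogate variable (1) and leaving out lean rat 19 (0 to 1 over the 12 libraries left out in turn). Listed genes called stayed at 0 throughout. Between 197 and 418 genes had an unadjusted p under 0.05. On whole egg DESeq2 called 2 genes where edgeR, also with RLE factors or robust dispersions, and limma-voom called 0.

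Of the 20 named genes 17 kept their direction under each alternative, but not their size. Under the genotypes of the strain label 12 of them kept the sign with an estimate over 1.5 times smaller, among them Ugt1a6 (-0.01), Tfrc (-0.04), Ubd (-0.22), Clpx (0.16), Prxl2a (0.18) and Apoa4 (0.23). Leaving out 1 library moved 5 of the 20 over 1.5 times. Sesn2 (-0.28), Upf1 (0.82) and ENSRNOG00000043451 (-0.27) turned under the genotypes of the strain label, and Pros1 (-0.06) without ZDF rats 1, 5 and 9 and lean rat 12. ENSRNOG00000054065 turned in limma-voom (0.52), under the strain labels (5.28), in the rats with 1 genotype by both sources (2.76) and without lean rat 4, its range over the left-out libraries being -6.43 to 3.65. For the strain labels the cause is by construction the other grouping of the same rats, and for the rats left out it is the smaller set of rats. For limma-voom the cause was not tested. Scaling by library totals alone moved the median of all genes to 0.13 from 0.01.

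No paired analysis was possible because the ZDF and lean groups hold different rats, whose numbers occur once each. Depth limits the comparison most in ZDF rat 5, where 1 read is worth 8.12 CPM, against 0.157 CPM in lean rat 23. The strain labels and the column names cannot both be right for 5 rats, and genes with more than 1 zero in a table were not analysed here.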

Other observations

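An unnamed gene chosen after its values were seen, ENSRNOG00000011815, had a positive difference on both diets, 1.12 ± 0.34 on casein (edgeR adjusted p = 0.997) and 2.22 ± 0.43 on whole egg (adjusted p = 0.051). DESeq2 called it and Phlda1 on whole egg. The difference between the diets in its genotype effect had an adjusted p of 0.999.

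Genes at an unadjusted p under 0.05 were more numerous in the kidney with the genotypes of the strain label (395, or 5.81% of 6797) and in the 4 ZDF and 3 lean rats for which both sources give 1 genotype (418, or 6.15%) than by column name (276, or 4.06%), with 0 called in edgeR each time. In liver, which lacked lean rat 23, so that both sources agreed on 4 ZDF and 2 lean rats, the shares were 8.67%, 9.35% and 4.69%. In adipose tissue they were 4.92%, 10.4% and 11.2%, and in the PFC 3.05%, 7.30% and 5.71%.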
